A study of Mus musculus with 10 samples.

Results

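The somatic cells of day 2 embryoid bodies (d2 EB) were compared with the d2 EpiLC from which the bodies were made. The comparison covered 735 of the 5897 cells of the series, namely all 289 cells of the d2 EpiLC library and 446 of the 537 cells of the d2 EB library. The somatic cells were those d2 EB cells that the study did not list as PGC-like cells (PGCLC), and 91 cells of the same library were so listed. The listing was made from transcript levels in the bodies, so low levels of germline and pluripotency genes in the somatic cells are in part given by it.

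All cells were wild-type E14Tg2a, a male mouse embryonic stem cell line. Stem cells adapted to medium with a MEK inhibitor, a GSK3β inhibitor and LIF (2i ESC) had been turned into EpiLC on Fibronectin in N2B27 with Activin A, bFGF and KSR for 2 days. For the EB, d2 EpiLC were moved to low-attachment plates in GK15 medium with BMP4, SCF, LIF and EGF and no BMP8a, and d2 EB were collected 2 days later. Cells other than EpiSC were dissociated with the same enzyme, and transcripts were counted at their 3′ ends with the 10x Genomics v2 chemistry. Each condition had 1 library of 1 cell line, so library and stage cannot be told apart, no test was made, and all intervals cover counting error only.

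EpiLC stand for the formative epiblast, the layer of the embryo that has left naive pluripotency and can still form every germ layer and the germline. In the embryo, BMP4 from the neighbouring extraembryonic ectoderm acts on the posterior proximal epiblast through SMAD1/5 and induces ID and MSX genes, while WNT signals induce *T* (Brachyury) and *Mesp1* in the primitive streak. Most cells that leave the posterior streak first become extraembryonic mesoderm, which builds the allantois, amnion and yolk sac and expresses *Hand1*, *Foxf1*, *Tbx4* and *Bmp4*, and only a few become PGC. HOX genes and their CDX activators come on in this posterior tissue.

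*T* and *Cdx2*, transcription factors of the streak and of the posterior body, are shown here by the bases before their RefSeq starts because both went from 1 UMI in all d2 EpiLC to a large share of the somatic cells. The sequence of *T* (GRCm38.p6, chr17:8434173-8434422, plus strand) holds in capitals a match to the TCF/LEF motif CTTTGAA, read on the opposite strand, and a match to the CDX motif TTTATGG, which begin 235 and 178 bases before the start. That of *Cdx2* (chr5:147307271-147307499, minus strand) holds in capitals a match to the octamer motif TTTGCAT, read on the opposite strand and beginning 147 bases before the start.
T: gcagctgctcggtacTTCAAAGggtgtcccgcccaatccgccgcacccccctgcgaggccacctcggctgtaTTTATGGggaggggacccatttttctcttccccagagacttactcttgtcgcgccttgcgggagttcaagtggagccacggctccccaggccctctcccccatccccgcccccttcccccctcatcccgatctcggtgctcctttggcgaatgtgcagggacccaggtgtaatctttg
Cdx2: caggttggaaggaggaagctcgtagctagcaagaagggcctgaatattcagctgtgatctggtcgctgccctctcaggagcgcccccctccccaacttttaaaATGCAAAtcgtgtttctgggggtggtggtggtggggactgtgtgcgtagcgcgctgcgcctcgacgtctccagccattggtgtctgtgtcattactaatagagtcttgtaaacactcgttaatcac
Over both strands of the 250 bases before 32851 RefSeq starts, 4.46% held the TCF/LEF motif, 2.43% the CDX motif, 4.12% the octamer motif and 9.59% GGCGCC, a GC-rich SMAD motif. A match is a description of the letters only.

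The depth of the groups differed. The d2 EpiLC held 11155833 UMIs in all, with a median of 35956 UMIs and 5231 genes per cell, and the somatic cells 11716150 UMIs, with a median of 24045.5 UMIs and 4325.5 genes. Levels are therefore given as counts per 1e6 UMIs of a group (CPM), after pooling its cells, and a count of 0 allows up to 0.269 CPM in d2 EpiLC and 0.256 CPM in somatic cells, which is the value of 3 UMIs. Shares of cells with a UMI are given after random thinning of each cell to a depth of 18049 UMIs, with 13 d2 EpiLC and 45 somatic cells too shallow to enter, and the medians were then 3760.5 and 3772 genes. CPM cannot tell more cells with a transcript from more transcripts per cell, so shares stand beside the CPM where that matters. The libraries shared 1 cell barcode, and mitochondrially encoded transcripts took 3.35% of the UMIs in d2 EpiLC and 4.02% in somatic cells.

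The label "somatic" was checked with markers. Grouping the 537 d2 EB cells into 3 clusters by k-means put 377 of the 446 somatic cells in a main cluster, 64 in a cluster with markers of extraembryonic ectoderm (ExE-like) and 5 in a cluster with 84 of the listed PGCLC. The ExE-like cells were 14.3% of the somatic cells (95% Clopper-Pearson interval 11.2 to 18.0%) and had a median of 35080.5 UMIs, against 23009 in the main cluster. Against the other d2 EB cells, 7 of 10 extraembryonic mesoderm markers were at least 2-fold higher in the main cluster (median 3.32-fold), and 5 of 9 extraembryonic ectoderm markers in the ExE-like cells (median 4.61-fold). The ExE-like cluster was named for having the highest median of these 9 markers, so that value does not test the name. The mesoderm markers summed to 1519 CPM in the ExE-like and 1959 CPM in the main cluster cells, and the ectoderm markers to 301 and 22.2 CPM. *Elf5*, a defining factor of trophoblast stem cells, had no UMI in any somatic cell. Results that rest on these 64 cells are given with and without them or by cluster.

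Most genes stayed within a 2-fold range, and a minority changed by a large factor. Of 13534 genes with at least 10 UMIs over both groups, 1969 (14.5%) were at least 2-fold higher in somatic cells and 1567 (11.6%) at least 2-fold lower on the scale of log2(CPM + 1), which is what "rose" and "fell" mean from here on. The other 9998 (73.9%) did neither, and the median log2 ratio of all these genes was 0.06. Among them 219 had no UMI in d2 EpiLC and 148 none in somatic cells. Such a gene entered through the group that held it and nearly had to pass the limit. Lists with many of them are therefore also given over all their members. Those counts take any difference in CPM, however small and on however few UMIs. Their background is that of all 27998 genes, of which 9012 had a higher and 8507 a lower CPM in somatic cells. The other 10479 had no UMI in either group. Steps of size were uneven, with 588 rises and 385 falls of 4-fold or more, 100 and 31 of 16-fold or more, and 44 and 10 of 32-fold or more. The genes that rose took 1.73% of all UMIs in d2 EpiLC and 7.26% in somatic cells, and those that fell went from 7.98% to 2.54%. Without the ExE-like cells 1886 genes were higher and 1830 lower. The shares of 14.5% and 11.6% are the background for each count of rises or falls in a list below.

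**Figure D1:**
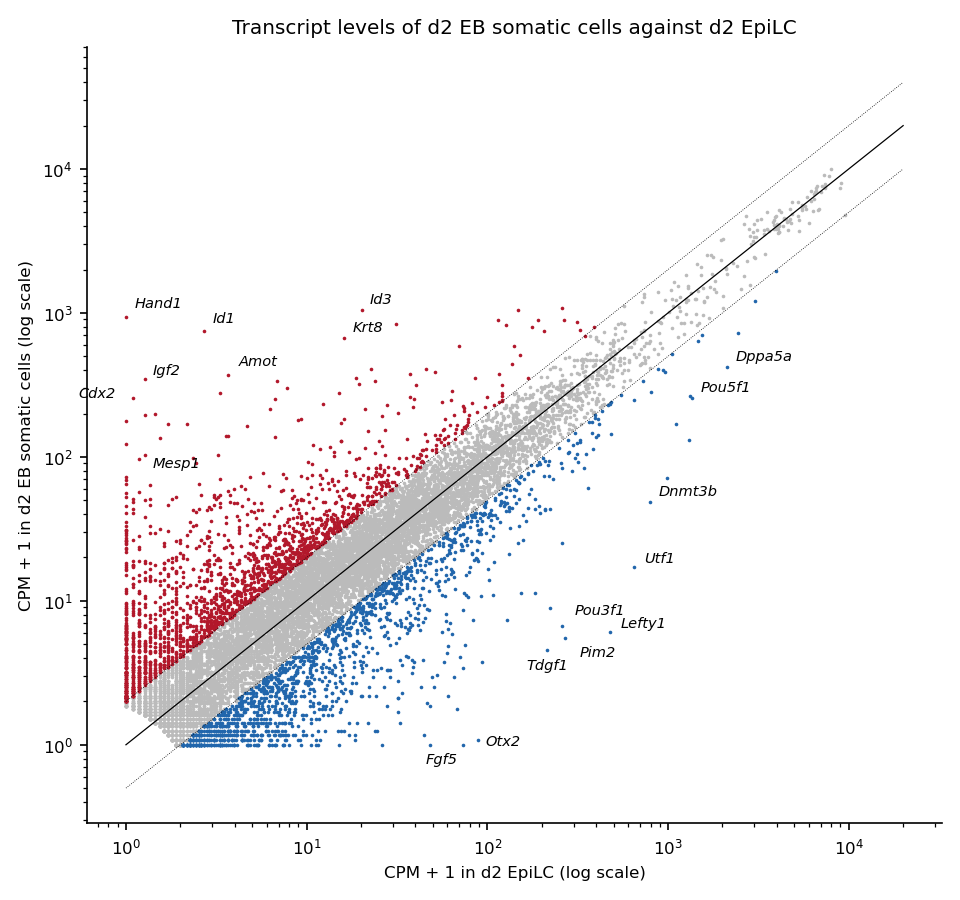
Each point is 1 of 13534 genes, with CPM + 1 in d2 EpiLC on the horizontal and in d2 EB somatic cells on the vertical axis, both on log scales; red points rose and blue points fell by at least 2-fold (dotted lines), and the solid line marks equal levels. *Hand1* lies at the left edge at 942 CPM in somatic cells, and *Otx2* and *Fgf5* lie at the lower edge after 87.2 and 72.6 CPM in d2 EpiLC.

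Most transcription factors and signals of the formative epiblast fell. Of 22 such genes tested 17 fell, 1 rose and 4 did neither, with a median log2 ratio of -2.42, and their summed CPM went from 2079 to 614. *Otx2*, a homeodomain factor that opens formative enhancers, went from 87.2 CPM (95% Poisson interval 81.8 to 92.9) in d2 EpiLC to 0.0854 CPM, which is 1 UMI over all 446 somatic cells, and this is 1022-fold lower with a counting interval of 183 to 40403. *Fgf5*, a ligand that marks the postimplantation epiblast, went from 72.6 CPM to 0 of 446 cells, at least 284-fold lower, where a count of 0 allows a UMI in up to 0.673% of cells and sets no limit on cells that express the gene. *Pou3f1*, an octamer-binding factor, went from 257 to 5.72 CPM, 44.9-fold lower (35.3 to 58.1). *Foxd3*, a forkhead factor, went from 25.2 CPM to 0. All 4 were thus high in d2 EpiLC and at or close to 0 in the somatic cells, while d3 EpiLC, kept in Activin A and bFGF for 1 more day, had 135, 96.1, 136 and 21.9 CPM of them.

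ZIC factors and de novo DNA methyltransferases fell with them. *Zic2* and *Zic5* fell from 23.6 and 59.5 CPM to 0.256 and 1.19 CPM. *Dnmt3b* fell from 798.4 to 47.6 CPM (16.8-fold, 15.4 to 18.3), *Dnmt3a* from 132 to 30.9 CPM and their cofactor *Dnmt3l* from 31.2 to 1.11 CPM. *Uhrf1*, which guides maintenance methylation, had 101 and 92.0 CPM and passed the 2-fold limit in neither direction. The list of 13 DNA methylation genes had 3 rises, 4 falls and a median of 0.03, while its summed CPM was 0.439-fold. The fourth gene that fell was *Tet1*, a 5-methylcytosine oxidase, which went from 51.8 to 12.4 CPM. *Sox11*, a SOXC factor, was the member of the formative list that rose, from 77.4 to 184 CPM.

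Core pluripotency factors fell unevenly. Of 16 genes 11 fell, 1 rose and 4 did neither, with a median log2 ratio of -2.39. *Utf1*, a chromatin protein of pluripotent cells, fell from 646 to 16.1 CPM (40.04-fold, 34.7 to 46.5), with a UMI in every d2 EpiLC and in 12.5% of thinned somatic cells. *Tdgf1*, the NODAL coreceptor, fell from 212 to 3.58 CPM, and *L1td1*, an RNA-binding protein, from 183 to 10.3 CPM. *Pou5f1* (OCT4) fell less, from 1357 to 256 CPM, which is 5.31-fold (5.11 to 5.53), and was still found in 92.5% of thinned somatic cells. The lowest, median and highest d2 EpiLC had 597, 1324 and 2318 CPM of *Pou5f1*, and the somatic cells 0, 216 and 1317 CPM, so the groups overlapped only in part. *Sox2* fell from 58.1 to 13.998 CPM and *Nanog* from 18.8 to 2.82 CPM. The listed PGCLC of the same library held 824 CPM of *Pou5f1*, 265 CPM of *Sox2* and 82.5 CPM of *Nanog*, but these levels helped to choose them.

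Naive pluripotency genes moved in both directions. Among 12 of them 5 rose and 3 fell, with a median log2 ratio of 0.83. Their summed CPM, which includes *Tbx3*, went from 91.6 to 285. *Klf4* rose from 4.12 to 40.5 CPM, *Klf2* and *Prdm14* rose as well, and *Fgf4* and *Nr0b1* were among those that fell. *Prdm14* had no UMI in d2 EpiLC, and of the 11 naive genes with UMIs in both groups 4 rose. *Tbx3* is also an early mesoderm gene and went from 1.17 to 168 CPM (144-fold, 84.0 to 271), with a UMI in 89.3% of thinned somatic cells. *Klf5* had 15.0 and 26.2 CPM, below the limit. In the main cluster *Klf4* at 45.1 CPM stood beside *Nanog* at 2.62 CPM.

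NODAL signalling components that mark the epiblast fell. *Lefty1*, a secreted NODAL inhibitor, fell from 479 to 5.04 CPM (95.1-fold, 73.6 to 125), with 87.3% of thinned d2 EpiLC and 4.24% of somatic cells holding a UMI. *Nodal* itself fell from 58.1 to 6.23 CPM and *Lefty2* from 45.8 to 18.9 CPM. *Furin*, a convertase of the ligand precursor, rose from 3.23 to 35.7 CPM. *Acvr2b*, a receptor, with 50.9 and 56.8 CPM, did neither. Of 13 genes of the pathway 5 fell and 2 rose, and the median of -0.03 lay close to that of all genes although the summed CPM was 0.257-fold. *Lefty1* was 135 CPM in d3 EpiLC and 88.3 CPM in d2 PGCLC.

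Target genes of BMP signalling rose. All 20 listed genes had a higher CPM in somatic cells, and their summed CPM went from 125 to 4647. Of the 19 with at least 10 UMIs, 6 had no UMI in d2 EpiLC, and the 13 with UMIs in both groups were each at least 2-fold higher, against 14.5% of all genes. *Id1*, an inhibitor of bHLH factors and a direct SMAD1/5 target, went from 1.70 to 749 CPM (439.9-fold, 282 to 731). The lowest, median and highest somatic cell had 0, 714 and 3224 CPM of it, the highest of the 289 d2 EpiLC had 102 CPM, and after thinning 1.81% and 99.5% of cells held a UMI. *Id3* went from 19.2 to 1046 CPM (54.5-fold, 47.6 to 62.7) and was found in all 446 somatic cells, at 81.2 CPM in the lowest. *Msx2*, a homeobox gene, had no UMI in d2 EpiLC and 176 CPM in somatic cells, at least 655-fold higher, and *Msx1* went from 2.33 to 276 CPM.

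BMP ligands, receptors and SMADs were divided. *Bambi*, a decoy receptor that dampens the signal, went from 22.9 to 334 CPM. The ligand *Bmp4* itself went from 1.43 to 89.4 CPM (62.3-fold, 38.2 to 109) and was found in 62.8% of thinned somatic cells, *Bmp7* from 1.52 to 23.1 CPM and *Bmp2* from 0 to 4.44 CPM, while *Gdf3* fell from 41.8 to 1.54 CPM. Of 15 ligands, receptors and SMADs 6 rose, 1 fell and 8 did neither, among them *Smad4* at 33.6 and 48.1 CPM. Among these 15 genes 1 had no UMI in d2 EpiLC, and of the 14 with UMIs in both groups 5 rose. The listed PGCLC, which had been in the same medium and library, had 422 CPM of *Id1*, 543 CPM of *Id3*, 141 CPM of *Msx1* and 73.6 CPM of *Msx2*. d3 EpiLC, which had no added BMP4, had 17.0 CPM of *Id1*, 23.1 CPM of *Id3* and 0.071 CPM of *Msx2*.

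The gene with the largest log2 ratio was *Hand1*, a member of both the extraembryonic mesoderm and the BMP response lists. This bHLH factor of the extraembryonic mesoderm, amnion and trophoblast had 0 UMIs in 289 d2 EpiLC and 942 CPM (924 to 959) in somatic cells, at least 3501-fold higher. After thinning 98.3% of the somatic cells held a UMI of it, with 0, 957 and 3166 CPM in the lowest, median and highest cell. Of the 24 extraembryonic mesoderm genes 21 had a higher and 2 a lower CPM in somatic cells, and 1 had no UMI in either group. Of the 21 with at least 10 UMIs, 12 had no UMI in d2 EpiLC, and of the 9 with UMIs in both groups 7 rose and 1 fell. *Pmp22*, a membrane protein, went from 0.448 to 198 CPM. *Foxf1*, a forkhead factor needed for the allantois and yolk sac, went from 0 to 63.7 CPM and was in 51.1% of thinned cells. *Tbx20*, *Gata6*, *Pitx1* and *Tbx4* had 26.4, 25.5, 25.01 and 8.96 CPM in somatic cells, against 0 or, for *Tbx4*, 0.0896 CPM in d2 EpiLC. *Bst2*, a membrane protein, had 254 and 211 CPM.

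*Hand1* was present in both somatic clusters, with 1031 CPM in the main cluster and 635 CPM in the ExE-like cells, both above d2 EpiLC. *Foxf1* had 77.1 and 16.2 CPM in these clusters and *Bmp4* 112 and 6.49 CPM, both higher in the main cluster. *Ahnak*, a scaffold protein of the same marker list, had the converse pattern with 13.8 and 185 CPM. In d2 PGCLC *Hand1* was at 86.3 CPM and in 43.2% of thinned cells at a median of 29664 UMIs before thinning. The part that free RNA of the same library had in this share was not tested. By d4, *Hand1* in EB somatic cells was at 245 CPM and *Pitx1* at 204 CPM, from another library.

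**Figure D2:**
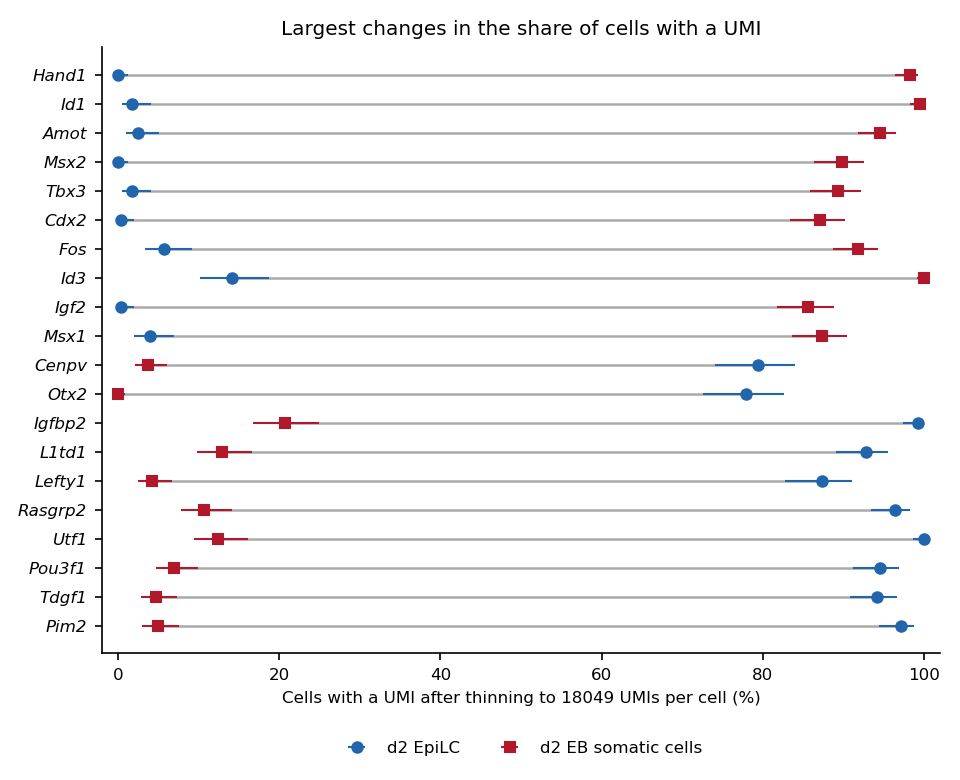
The horizontal axis gives the percentage of cells with at least 1 UMI after thinning to 18049 UMIs, in 276 d2 EpiLC (blue circles) and 401 d2 EB somatic cells (red squares) with 95% Clopper-Pearson intervals, for the 10 largest rises and 10 largest falls. *Hand1* goes from 0 to 98.3% and *Otx2* from 77.9% to 0.

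Primitive streak genes were divided. Of 21 tested 13 rose and 6 fell, with a median log2 ratio of 1.69. Among these 21 genes 3 had no UMI in d2 EpiLC, and of the 18 with UMIs in both groups 10 rose. *Mesp1*, the bHLH factor of the earliest mesoderm, went from 0.269 to 102 CPM, which rests on 3 UMIs in d2 EpiLC and is 379-fold with an interval of 129 to 1842. *T* went from 0.0896 to 47.8 CPM (533-fold on 1 UMI, 95.3 to 21098). *Mixl1* and *Evx1*, homeobox genes of the streak, had 17.4 and 29.9 CPM in somatic cells, and *Eomes*, the T-box gene of the anterior streak, went the other way from 3.41 to 0.0854 CPM. *Fgf8*, a ligand of the streak, rose from 38.0 to 99.8 CPM although its share of thinned cells was 38.8% and 38.7%, so the somatic cells that held it held more. *Lhx1*, *Tbx6* and *Mesp2* were at 1.37, 1.79 and 0.427 CPM in somatic cells.

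The streak genes were found in part of the somatic cells. After thinning, 30.7% of 401 somatic cells held *T* and 48.6% *Mesp1*, and 88 cells held both. *Mesp1* was in 71.5% of the cells with *T* and in 38.5% of those without it. *Igf2*, an imprinted growth factor, was in 66.7% of the cells with *T* and 93.9% of those without. Over the 377 cells of the main cluster, log2(CPM + 10) of *T* and *Mesp1* had a Pearson r of 0.41, *T* and *Igf2* -0.52, *Mesp1* and *Igf2* -0.40, *Foxf1* and *Hoxb6* 0.46, and *T* and *Foxf1* -0.30. These correlations describe cells of 1 library that differ in depth. *T* and *Mesp1* were low in the ExE-like cells, at 5.68 and 1.22 CPM, and in d4 EB somatic cells, at 0.234 and 0.819 CPM, while *T* was at 127 CPM in d2 PGCLC.

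HOX and CDX genes went from close to nothing to a broad posterior set. Of 39 HOX genes 37 had a higher CPM in somatic cells and 2 had no UMI in either group. Of the 32 with at least 10 UMIs, 27 had no UMI in d2 EpiLC and so passed only through the somatic cells, and the 5 with UMIs in both groups rose. The 39 genes together had 1.79 CPM in d2 EpiLC and 488 CPM in somatic cells, 272-fold higher (176 to 446). *Hoxd9* had 0 UMIs in d2 EpiLC and 122 CPM in somatic cells, and 68.3% of thinned cells held it. *Hoxb6*, *Hoxb2*, *Hoxa7*, *Hoxc9* and *Hoxb8* had 44.7, 42.5, 34.1, 29.6 and 28.5 CPM, with 0 or, for *Hoxb2*, 1 UMI in d2 EpiLC. A somatic cell held transcripts of a median of 5 HOX genes before thinning and of at most 24, whereas 94.5% of d2 EpiLC held none.

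The rise reached genes along all 4 complexes, from *Hoxb1* at 16.3 CPM to *Hoxa13* at 4.01 CPM, chosen here as the ends of the series after their values were seen. *Cdx2*, an activator of posterior HOX genes, went from 0.0896 to 257 CPM (2864-fold on 1 UMI, 514 to 113165) and was in 87.0% of thinned somatic cells. *Cdx4* went from 0 to 23.9 CPM and *Cdx1* from 0.0896 to 12.1 CPM. The HOX genes stood at 610.2 CPM in sum in the main cluster and at 45.0 CPM in the ExE-like cells, and *Cdx2* at 313 and 49.5 CPM. In d2 PGCLC the HOX sum was 102 CPM and *Cdx2* 141 CPM. By d4 the EB somatic cells held 439.8 CPM of HOX transcripts and 28.0 CPM of *Cdx2*.

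**Figure D3:**
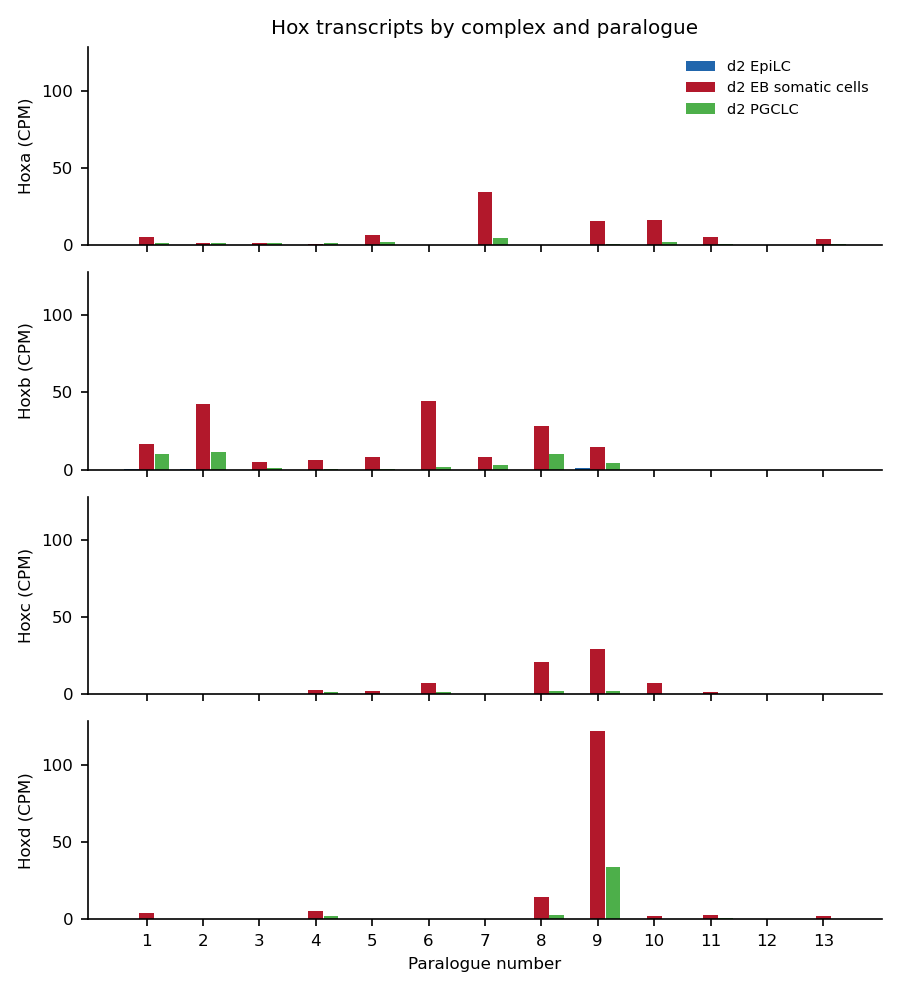
Bars give the CPM of each HOX gene by complex (rows) and paralogue number (horizontal axis) in d2 EpiLC (blue), d2 EB somatic cells (red) and d2 PGCLC (green), each 1 group of cells without error bars, with no bar where the complex has no gene or the level is close to 0. *Hoxd9* reaches 122 CPM in somatic cells, and the d2 EpiLC bars are close to 0 throughout.

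Genes of the WNT pathway moved in both directions. Of 29 genes 14 rose and 6 fell, with a median log2 ratio of 0.91. Among these 29 genes 2 had no UMI in d2 EpiLC, and of the 27 with UMIs in both groups 12 rose. *Wnt5a*, a noncanonical ligand, went from 0.179 to 94.9 CPM and was found in 68.6% of thinned cells. *Rspo3*, which strengthens WNT signals, went from 0.538 to 134 CPM, and *Dkk1*, a secreted WNT inhibitor, from 0 to 55.4 CPM. *Sfrp2*, a decoy of WNT ligands, fell from 59.9 to 3.84 CPM and *Ccnd1*, a cyclin, from 149 to 64.8 CPM. *Lef1*, the transcription factor, had 48.2 and 71.2 CPM. The ligands *Wnt5a* and *Rspo3* were in the main cluster at 117 and 164 CPM and in the ExE-like cells at 14.2 and 10.5 CPM, and *Dkk1* was at 15.8 and 204 CPM.

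The FGF list was divided, and the receptors and targets of LIF, SCF and EGF mostly rose. In the FGF list 7 of 23 genes rose and 5 fell, where 14.5% and 11.6% of all genes did. Among these 23 genes 1 had no UMI in d2 EpiLC and 1 none in somatic cells. Of the 21 with UMIs in both groups 6 rose. *Fgf3* rose from 1.97 to 42.4 CPM, and *Phlda1*, a gene induced by many growth signals, from 2.06 to 45.6 CPM. Of 13 receptors and targets of LIF, SCF and EGF, the growth factors of the EB medium, 10 rose and 1 fell with a median of 2.19. *Socs3*, the feedback inhibitor of STAT3, rose from 2.06 to 53.7 CPM, *Lifr* from 1.70 to 17.0 CPM and *Kit*, the SCF receptor, from 2.33 to 14.5 CPM, while the kinase *Pim1* fell from 92.1 to 34.7 CPM. In the retinoic acid pathway 6 of 11 genes rose and none fell below the limit. Among these 11 genes 1 had no UMI in d2 EpiLC, and of the 10 with UMIs in both groups 5 rose. *Cyp26a1*, which degrades retinoic acid, went from 0 to 67.5 CPM, at least 251-fold, and the carriers *Crabp1* and *Crabp2* from 26.2 to 101 CPM and from 13.7 to 56.7 CPM.

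Among growth factors outside these lists, *Tgfb2* went from 0.269 to 193 CPM (719-fold on 3 UMIs, 246 to 3489) and was in 82.5% of thinned somatic cells. *Amot*, a scaffold of the Hippo pathway, rose from 2.69 to 371 CPM and was found in 94.5% of thinned cells. *Sct*, the gene of the hormone secretin, rose from 0.717 to 169 CPM. All 3 were higher in the main cluster, at 239, 432 and 204 CPM, than in the ExE-like cells, at 29.6, 145 and 40.6 CPM. *Pim2*, a kinase, and *Dtx1*, a NOTCH regulator, were among the largest falls, from 269.5 to 4.52 CPM and from 47.2 CPM to 0. *Calca* fell from 43.5 to 0.171 CPM, *Pla2g10* from 47.2 to 0.854 CPM, *Rasgrp2* from 221 to 7.94 CPM, *Cenpv* from 92.2 to 2.73 CPM and the noncoding *Platr10* from 67.0 to 0.768 CPM.

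Mesenchymal genes rose, while epithelial genes divided by cluster. Of 20 mesenchymal genes 17 rose and none fell, with a median log2 ratio of 2.52. Among these 20 genes 3 had no UMI in d2 EpiLC, and of the 17 with UMIs in both groups 14 rose. *Snai1*, a repressor of E-cadherin, rose from 2.33 to 52.9 CPM, *Cdh2* (N-cadherin) from 2.96 to 47.0 CPM, *Vim* (vimentin) from 44.9 to 409 CPM and *Fn1* (fibronectin) from 36.1 to 260.2 CPM. Of 21 epithelial genes 9 fell and 3 rose. *Epcam*, an adhesion protein, fell from 293 to 78.6 CPM, *Crb3*, a polarity protein, from 71.9 to 7.60 CPM and *Cldn6*, a tight junction protein, from 92.8 to 20.4 CPM. The 3 that rose were keratins, *Krt8* from 15.1 to 670.0 CPM, *Krt18* from 69.1 to 587 CPM and *Krt19* from 3.76 to 49.6 CPM. The summed CPM of the epithelial list was 1.63-fold higher while its median log2 ratio was -0.70. This sum was 1143 CPM in d2 EpiLC, 866 CPM in the main cluster and 5628 CPM in the ExE-like cells. The higher sum thus rests on the ExE-like cells, and the main cluster was below d2 EpiLC.

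Keratin levels were higher in the ExE-like cells. They held 2037 CPM of *Krt8* and 2074 CPM of *Krt18*, and the main cluster 308 and 191 CPM, so both genes were above d2 EpiLC in each cluster. *Krt7* rose from 2.69 to 10.6 CPM over all somatic cells but was at 48.7 CPM in the ExE-like cells and at 0.437 CPM in the main cluster, and without the ExE-like cells its log2 ratio turned from 1.65 to -1.36. *Igfbp2*, a binding protein of IGF, fell from 415 to 167 CPM while its share of thinned cells fell from 99.3% to 20.7%, and it was at 759.9 CPM in the ExE-like cells and 9.18 CPM in the main cluster. *Epcam* had 192 and 48.2 CPM, *Cldn7* 148 and 9.39 CPM and *Crb3* 35.3 and 0.218 CPM in ExE-like and main cluster cells, all lower in the main cluster.

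Of 16 tested extraembryonic ectoderm genes 13 rose and none fell. Among these 16 genes 1 had no UMI in d2 EpiLC, and of the 15 with UMIs in both groups 12 rose. Rises were not counted without the ExE-like cells. The summed CPM of the list was 30.7 in d2 EpiLC, 632 in the main cluster and 1082 in the ExE-like cells. The tested genes include *Cdx2*, *Gata3* and *Peg10*, which the main cluster held at 313, 50.9 and 232 CPM. *Esx1* and *Rhox6*, homeobox genes of the placenta, had 47.1 and 77.1 CPM in the ExE-like cells and 0.218 and 2.40 CPM in the main cluster, and *Tfap2c*, an AP-2 factor of trophoblast and germ cells, 43.0 and 3.71 CPM. The summed CPM of the 9 extraembryonic ectoderm markers reached a median of 109 CPM per ExE-like cell and 0 per main cluster cell. Of 6 GATA genes 5 had a higher and 1 a lower CPM in somatic cells, and 3 of the 5 with at least 10 UMIs had none in d2 EpiLC. *Gata2* went from 0 to 52.0 CPM and was mostly in the ExE-like cells, at 178 against 18.5 CPM, while *Gata3* was at 46.7 and 50.9 CPM in these clusters and *Gata6* at 3.65 and 31.5 CPM.

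**Figure D4:**
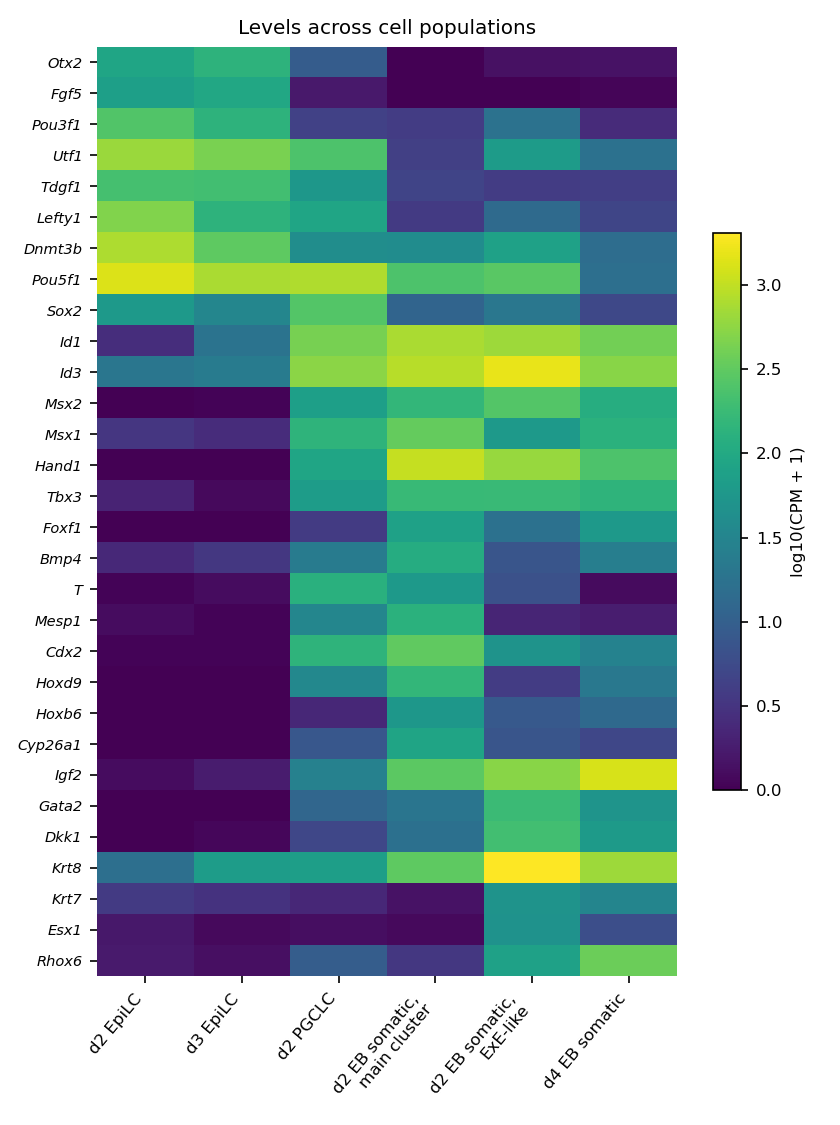
Colour gives log10(CPM + 1) of 30 genes (rows) in d2 EpiLC, d3 EpiLC, d2 PGCLC, the main and ExE-like clusters of d2 EB somatic cells and d4 EB somatic cells (columns, 4 libraries). *Hand1* is bright in both somatic clusters at 1031 and 635 CPM, *T* and *Mesp1* are high in the main cluster, and *Krt8*, *Esx1* and *Gata2* in the ExE-like cells.

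Imprinted genes rose widely. Of 22 tested 15 rose and 1 fell, with a median log2 ratio of 2.35. *Igf2* went from 0.269 to 344 CPM (1279-fold on 3 UMIs, 437 to 6203) and was in 85.5% of thinned somatic cells, with 297 CPM in the main cluster and 525 CPM in the ExE-like cells. *Peg10*, a retrotransposon-derived gene of the placenta, went from 6.81 to 300.4 CPM (44.1-fold, 35.1 to 56.1), *Dlk1* from 5.29 to 213 CPM and *Slc38a4*, an amino acid transporter, from 14.2 to 275 CPM. *Phlda2*, a placental growth regulator, rose from 146 to 1054 CPM. *Cdkn1c*, a cell cycle inhibitor, rose from 50.2 to 388 CPM. *Meg3*, transcribed from the maternal allele of the *Dlk1* locus, had 900.3 and 619 CPM and passed the limit in neither direction. Counts do not tell the parental alleles apart. By d4, *Igf2* was at 1269 CPM and *Cdkn1c* at 2213 CPM.

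Of 11 genes of the PGC list 7 rose in the somatic cells and none fell. Among these 11 genes 1, *Prdm14*, had no UMI in d2 EpiLC, and of the 10 with UMIs in both groups 6 rose. *Ifitm3* and *Ifitm1*, membrane proteins of early germ cells and of the proximal epiblast, rose from 126 to 829 CPM and from 30.3 to 832 CPM, and *Alpl*, alkaline phosphatase, from 15.4 to 79.2 CPM. The germline regulators *Prdm1*, *Dppa3* and *Nanos3* had 2.99, 1.62 and 1.11 CPM, against 4.66, 2.15 and 0.627 CPM in d2 EpiLC, and d2 PGCLC had 48.4, 103 and 22.5 CPM. *Dnd1*, a germline RNA-binding protein, rose from 9.23 to 23.3 CPM, with 169 CPM in d2 PGCLC. The 9 markers that define PGC here summed to a median of 85.7 CPM per d2 EpiLC, 41.4 CPM per somatic cell and 846 CPM per listed PGCLC. The lowest listed PGCLC had 143.5 CPM and the highest somatic cell 1345 CPM, so the groups overlapped. Levels in the bodies also helped to choose the PGCLC, so the contrast is in part given by the listing.

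Markers of other lineages were scarce. Endothelial markers summed to a median of 35.1 CPM per somatic cell, with *Kdr*, a VEGF receptor, rising from 0 to 8.62 CPM and *Etv2*, an ETS factor of the hemangioblast, from 6.54 to 28.4 CPM. *Emcn* had no UMI, and *Cdh5* was at 0.768 CPM. By d4 they were at 28.4 and 44.1 CPM. Endoderm markers summed to 9.05 CPM and neural markers to 7.85 CPM over all somatic cells, mostly *Sox17* at 7.94 CPM and *Hes5* at 7.51 CPM, while *Cer1*, *Hnf4a*, *Ttr* and *Sox1* had no UMI. Of 7 tested genes each in the wider endoderm and neural lists, 3 and 2 rose and 1 and 2 fell. In the endoderm list 2 of the 7 had no UMI in d2 EpiLC, and 1 of the 5 with UMIs in both groups rose. The 6 markers of 2-cell embryos had 2 UMIs in somatic cells, all of *Zscan4f*.

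Lateral plate and cardiac genes, T-box genes, collagens and matrix genes held more rises than falls. Of 17 lateral plate genes 11 rose and 2 fell, with *Twist1*, a bHLH factor of mesenchyme, going from 0.627 to 17.3 CPM and *Meis2* from 0.359 to 49.8 CPM. Among these 17 genes 3 had no UMI in d2 EpiLC, and of the 14 with UMIs in both groups 8 rose. Of 8 tested T-box genes 5 rose, among them *Tbx2* from 0 to 24.2 CPM, and 2 of the 8 had no UMI in d2 EpiLC. Over all 16 T-box genes 7 had a higher and 4 a lower CPM in somatic cells. Of 23 tested collagen genes 16 rose and 1 fell, and 4 of the 23 had no UMI in d2 EpiLC. Over all 44 collagen genes 25 had a higher and 14 a lower CPM in somatic cells. *Col1a1* went from 0.179 to 56.2 CPM and was in 43.4% of thinned cells, *Col1a2* from 0.0896 to 4.52 CPM, and *Col18a1* fell from 107 to 9.90 CPM, so that the collagen sum stayed at 134 and 142 CPM. Of 18 matrix genes 9 rose and 1, *Lama5*, fell, from 42.4 to 11.3 CPM. Among these 18 genes 1 had no UMI in d2 EpiLC, and of the 17 with UMIs in both groups 8 rose.

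**Figure D5:**
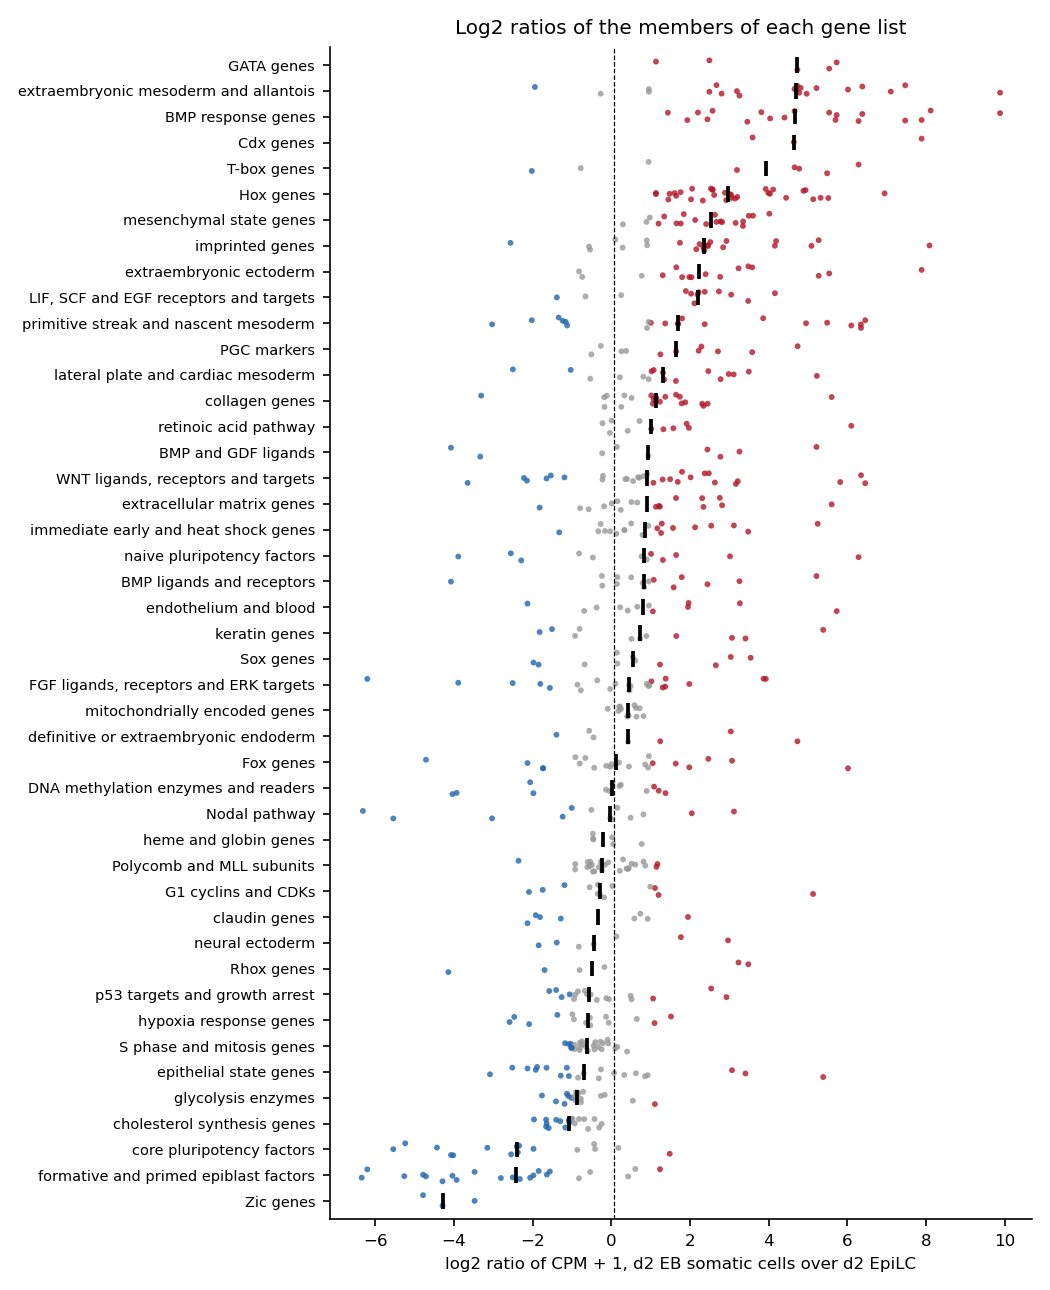
Each point is a tested member of a gene list and the horizontal axis gives its log2 ratio of CPM + 1, d2 EB somatic cells over d2 EpiLC, with red for rises and blue for falls of at least 2-fold; black bars are list medians and the dashed line is the median of all genes, 0.06. The BMP response genes shown have a median of 4.66, and the formative epiblast factors have a median of -2.42.

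Part of the metabolic genes fell. Glycolysis enzymes had a median log2 ratio of -0.88, with 6 of 18 falling and 1 rising, and their summed CPM went from 12560 to 6007. *Ldha* (lactate dehydrogenase) fell from 2450.4 to 721 CPM (3.40-fold, 3.32 to 3.48), with a UMI in every cell of both groups. *Aldoa*, *Pkm* and *Gapdh* fell from 1546, 1461 and 3956 CPM to 706, 640.1 and 1961 CPM. Cholesterol synthesis genes had a median of -1.07, with 11 of 19 falling and none rising, among them *Fdps* from 306 to 97.3 CPM. Of 14 hypoxia genes 4 fell, *Bnip3* from 157 to 25.3 CPM, and 2 rose, where 11.6% and 14.5% of all genes did. The glycolysis sum was 7637 CPM in d3 EpiLC and 5585 CPM in d2 PGCLC.

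Cell cycle genes stayed within the limit at a share of 21 of 26 (80.8%) in the S phase and mitosis list and 7 of 13 (53.8%) in the G1 list, against 73.9% of all genes. Of the S phase and mitosis genes 5 fell and none rose, with a median of -0.62, *Mcm2*, a helicase subunit, going from 133 to 58.2 CPM. Of 13 G1 genes 3 rose and 3 fell. *Ccnd2* (cyclin D2) rose from 3.68 to 162 CPM and its share of thinned cells from 5.80% to 77.8%, while *Ccne1* (cyclin E1) fell from 193 to 44.5 CPM and *Mycn* from 106 to 31.0 CPM. *Ccnd3* rose from 76.5 to 166 CPM and *Cdk4* had 797.6 and 702 CPM. Of 18 p53 targets 3 rose and 4 fell, where 14.5% and 11.6% of all genes did. Of 27 Polycomb and MLL subunits 24 stayed within the limit, and *Cbx7* fell from 54.9 to 9.90 CPM.

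The 81 cytosolic ribosomal protein genes had a median log2 ratio of 0.03, with 2 falls, and the 13 mitochondrially encoded genes 0.43, with none past the limit. *Ftl1-ps1*, a ferritin pseudogene whose reads can be shared with its parent gene, had the largest difference in CPM, 9530 and 4765 CPM in d2 EpiLC and somatic cells, and is uncertain for that reason. *Hsp90aa1*, a chaperone, fell from 3017 to 1204 CPM, and *Ptma* and *Npm1* had 6017 and 5293 CPM in d2 EpiLC and 4203 and 3697 CPM in somatic cells. *Rpl41*, *Eef1a1* and *mt-Cytb* were higher in somatic cells, at 10035, 9108 and 4736 CPM against 7929, 7302 and 2682 CPM.

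Immediate early genes, which also respond to handling of cells, differed between the libraries, which here cannot be told apart from stages. Of 20 immediate early and heat shock genes 9 rose and 1 fell. *Fos* went from 5.65 to 251 CPM (44.4-fold, 34.6 to 58.0) and from 5.80% to 91.8% of thinned cells, *Jun* from 12.5 to 116 CPM and *Junb* from 14.4 to 171 CPM. In d3 EpiLC they were at 155, 145 and 129 CPM, and *Fos* was in 75.3% of thinned cells. The d2 PGCLC, of the same library as the somatic cells, held *Fos* in 61.4% of thinned cells. d2 EpiLC was thus low in these genes against both other libraries, and the part of handling in this difference was not tested. The median of the list was 0.87 while its summed CPM, which is mostly heat shock genes, was 0.823-fold.

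By detection alone, 42 of 16648 genes (0.252%) were switched on, with a UMI in at most 10% of thinned d2 EpiLC and at least 50% of thinned somatic cells, and 34 (0.204%) were switched off by the converse criterion. Of the 42 genes 8 of the BMP list and 6 of the extraembryonic mesoderm list were members, and 4 were in at least 90% of somatic cells. In the main cluster 41 of the 42 were in at least 50% of cells, and in the ExE-like cells 19. The main cluster made up 335 of the 401 thinned somatic cells that chose these genes. Its count is thus nearly given by the choice and does not tell the clusters apart. Among listed PGCLC of the same library 9 of the 42 were in at least 50% of cells and 6 in at most 10%. In d3 EpiLC 35 of the 42 were in at most 10% of cells, and 23 were still in at least 50% of d4 EB somatic cells. Of the 34 genes switched off, 27 were in at most 10% of d4 EB somatic cells, 19 were in at least 50% of d3 EpiLC, 12 were in at most 10% of d2 PGCLC and 2 were in at least 50% of them.

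The stage gene sets of the study, which had been chosen on these libraries and are no independent evidence, were described in the same way. Of 389 EpiLC genes 217 fell and 17 rose in somatic cells, with a median log2 ratio of -1.12. Of 386 tested PGCLC genes 198 fell and 15 rose, and *T* was among those that rose. Of 544 EpiSC genes 244 rose and 49 fell, with a median of 0.82, and *Id1* and *Amot* were among those that rose. Of 474 ESC genes 85 rose and 135 fell, with a median of -0.23, where 14.5% and 11.6% of all genes did.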

How the data were processed

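Single cells of E14Tg2a had been profiled by the authors with the 10x Genomics 3′ v2 kit, aligned to mm10 with Cell Ranger, and aggregated over 8 libraries so that mapped reads per cell were alike. The deposited table holds whole UMI counts by gene and cell for 27998 genes and 2782 cells. The authors' list of PGCLC barcodes gave 135 cells, all found, and 0 columns were left unused. The gene annotation of the counts is not given in the sources used here, and a table of Ensembl gene names gave symbols to 27645 identifiers.

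CPM had exact Poisson intervals, ratios exact conditional intervals and shares Clopper-Pearson intervals, all at 95%. For log2 ratios 1 CPM was added to each level, and genes under 10 UMIs in the groups combined were left out. Ratios against a count of 0 were computed against 3 UMIs over the group. Clusters came from k-means (k = 3, seed 1) on 20 components of a principal component analysis of 2000 variable genes, each cell scaled to 10000 and log transformed, and their names from markers. Doublets were called with Scrublet in scanpy 1.11.5 and kept, 22 of 289 d2 EpiLC and 6 of 537 d2 EB cells. Leading genes needed 50 UMIs. Promoters were taken from RefSeq on GRCm38.p6, of which 23 of the 30 genes with the largest changes had an entry. Python 3.11.15, numpy 2.4.6, scipy 1.17.1, pandas 2.3.3, scikit-learn 1.9.0 and matplotlib 3.10.9 were used, and the computations were tested on simulated data.

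Named genes are the 15 largest rises and falls among genes with at least 100 UMIs, up to 6 members of each list, the 10 largest rises and falls in detection, the 10 largest differences in CPM and the cell type markers. Members and lists were chosen with earlier results of these data known.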

Additional observations from a re-analysis of the deposited data

How the results depend on the processing

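No paired analysis was possible because each condition had 1 library. With a pseudocount of 10 CPM, 581 genes were higher and 414 lower. Requiring at most 5% and at least 70% of cells left 13 genes switched on and 5 switched off, and without thinning 70 genes were switched off. Of the cell type markers, 8 were in at least 50% of thinned somatic cells with 1 UMI and 5 with at least 2 UMIs. *Krt7* turned to -1.36 on the log2 scale both without the ExE-like cells and in the main cluster only, the latter chosen after seeing the data. The other counts of genes stayed within 1.5 times under scaling by the median ratio, totals without mitochondrially encoded and ribosomal protein genes, equal weight of cells, thinning, other minimums, a pseudocount of 0.1 CPM, and without PGC-like cells or doublets. Totals without mitochondrially encoded and ribosomal protein genes moved the median of all genes to 0.11. Over these alternatives 571 values of named genes, 89 of lists and 72 of shares moved beyond their counting error, and 2689, 535 and 74 did not. The pooled depth allows no level under 0.269 CPM in d2 EpiLC or 0.256 CPM in somatic cells to be told from 0.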
